A study of Mus musculus with 19 samples.

Results

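The genes described here are the 4 adenosine receptors of the mouse (Adora1, Adora2a, Adora2b and Adora3) and 6 enzymes that act on nucleotides and adenosine outside the cell (Entpd1, Entpd2, Entpd3, Enpp1, Nt5e and Ada). They were taken by symbol, all 10 being present among the 26221 rows of the deposited normalized table, by a rule that names symbols and uses no measured value. RNA was sequenced from 19 libraries of sorted nasal epithelial cells of naive mice carrying Tg(RP23-268L19-EGFP)2Mik/J on a B6.Cg background, in which a bacterial artificial chromosome transgene with the regulatory region of Chat, the acetylcholine synthesis gene, drives enhanced green fluorescent protein (eGFP). FSClow (n = 9) and FSChi (n = 5) are CD45- EpCAM+ eGFP+ cells of low and of high forward and side scatter, which the labels call brush cells, chemosensory epithelial cells also known as tuft cells. EpCAM (n = 5) are CD45- EpCAM+ eGFP- cells of the same mouse strain, so the controls carry the transgene too. Tissue was digested first with dispase and afterwards with papain, propidium iodide served to gate out dead cells, and eGFP marks cells by the activity of the transgene, not by the Chat protein. The labels used here give no age and do not say whether each library is another animal; p-values therefore reflect only how far these libraries scatter, and that scatter may be technical.

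Cells release ATP, and enzymes on their surface take it apart in steps. The products of Entpd1, Entpd2 and Entpd3 remove phosphates from ATP and ADP, that of Enpp1 cuts ATP directly to AMP, that of Nt5e turns AMP into adenosine, and adenosine deaminase, the product of Ada, turns adenosine into inosine. Adenosine acts on G protein-coupled receptors: those of Adora1 and Adora3 couple to inhibitory G proteins that lower cyclic AMP, and those of Adora2a and Adora2b to stimulatory ones that raise it. In airway lining these enzymes and receptors are known for setting fluid secretion and ciliary clearance, and in taste buds ATP is the transmitter that taste cells pass to nerves.

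Promoter sequences are shown first for Adora1, Entpd1 and Entpd3, called higher in both eGFP-positive gates than in EpCAM, and for Adora2b. Other genes with calls, namely Nt5e, Entpd2, Enpp1 and Ada, are not shown. The sequences are the 250 bases before the annotated start, from RefSeq on GRCm38.p6 (mm10), written 5′ to 3′ on the strand of the gene. The table of promoters held entries for 9 of the 10 genes. Capitals mark matches, on either strand, to 4 short motifs: the octamer ATGCAAAT, to which POU factors such as the tuft cell regulator Pou2f3 are known to bind, the CCAAT box, the GC box GGGCGG and the E-box CACGTG. Matches of 1 motif that run into each other are capitalised as 1 run. The window of Adora1 is chr1:134235458-134235707 on the minus strand. Those of Entpd1 are chr19:40612116-40612365 and, for its other annotated start, chr19:40659520-40659769, both on the plus strand. That of Entpd3 is chr9:120539568-120539817 and that of Adora2b chr11:62248734-62248983, both on the plus strand.
Adora1: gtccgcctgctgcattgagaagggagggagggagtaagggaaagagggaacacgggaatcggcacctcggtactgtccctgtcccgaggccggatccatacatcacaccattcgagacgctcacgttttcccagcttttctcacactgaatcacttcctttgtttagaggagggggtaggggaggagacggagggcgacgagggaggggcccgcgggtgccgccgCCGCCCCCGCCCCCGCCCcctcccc
Entpd1, start 1: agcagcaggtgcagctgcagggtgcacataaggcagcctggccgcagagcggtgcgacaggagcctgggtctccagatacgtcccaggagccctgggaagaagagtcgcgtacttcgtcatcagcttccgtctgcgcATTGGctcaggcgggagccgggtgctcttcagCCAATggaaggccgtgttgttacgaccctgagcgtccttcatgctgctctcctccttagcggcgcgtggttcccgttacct
Entpd1, start 2: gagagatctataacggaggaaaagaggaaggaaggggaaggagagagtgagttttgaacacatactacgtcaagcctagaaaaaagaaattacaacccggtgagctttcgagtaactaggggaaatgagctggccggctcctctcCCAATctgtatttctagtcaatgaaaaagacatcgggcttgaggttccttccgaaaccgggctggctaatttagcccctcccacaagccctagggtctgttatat
Entpd3: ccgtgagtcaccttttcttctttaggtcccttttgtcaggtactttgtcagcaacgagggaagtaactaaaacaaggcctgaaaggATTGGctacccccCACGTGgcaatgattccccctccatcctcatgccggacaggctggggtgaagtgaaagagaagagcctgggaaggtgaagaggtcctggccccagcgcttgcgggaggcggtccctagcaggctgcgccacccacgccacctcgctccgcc
Adora2b: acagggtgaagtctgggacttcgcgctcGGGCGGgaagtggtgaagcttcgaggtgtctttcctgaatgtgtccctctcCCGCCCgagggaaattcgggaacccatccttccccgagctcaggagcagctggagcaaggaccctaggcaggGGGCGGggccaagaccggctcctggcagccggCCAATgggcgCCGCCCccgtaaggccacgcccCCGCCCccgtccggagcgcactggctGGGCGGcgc

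The octamer had no match in any of these 5 windows, which says only that these letters are not in this stretch. It occurs in the same window of 1.60% of 32851 mouse promoters. The GC box was found 3 times in Adora1, within 25 bases of the start, and 6 times in Adora2b, and 32.7% of promoters hold it. CCAAT was found 2 times at start 1 of Entpd1 and 1 time each at start 2 of Entpd1, in Entpd3 and in Adora2b, and 33.8% of promoters hold it. Entpd3 alone of the 4 genes held the E-box, 151 bases before its start, against 6.02% of promoters. These matches are a description of the sequence, not of binding.

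Library totals ran from 2151281 to 5439263 counts in FSClow, from 1348428 (FSChi 2) to 7477695 (FSChi 3) in FSChi and from 4137303 to 6487644 in EpCAM. All 20 tuft and brush cell markers of the list used were tested, 19 being higher in FSClow and 20 in FSChi than in EpCAM, with summed levels of 12305 to 16351 CPM in FSClow, 10043 to 16539 CPM in FSChi and 131 to 166 CPM in EpCAM. Over all genes tested 22.0% and 13.5% were called higher in these comparisons. CPM is the read count relative to the size of its library, after scaling between libraries by TMM (trimmed mean of M values). Ptprc, which encodes the CD45 that the sort excluded, stood at 4.78 to 32.4 CPM in FSClow, 2.61 to 18.0 CPM in FSChi and at 0 in all 5 EpCAM libraries. The columns of FSChi 3, 4 and 5 and of EpCAM 1 and 2 in the count table resembled the deposited single-library file of another library of the same group more than their own, and the single file of FSChi 3 was nearly empty, with 6809 expected counts. The more alike file was in each case of the same group. Calls that end without these 5 libraries are given beside the result. Fits without them hold 9 FSClow, 2 FSChi and 3 EpCAM libraries, FSChi 2 being among them. Whether a call ended there through fewer libraries or through the columns left out was not tested.

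Of the 10 genes, 8 passed the filter on low counts and were tested. Both of the others are adenosine receptors. Adora2a had no count in any of the 19 libraries, where the limit that a count of 0 allows (3 counts over a group) is 0.107 CPM in FSClow, 0.142 CPM in FSChi and 0.108 CPM in EpCAM. Adora3 had 1 count in FSClow 6, 1 count in FSChi 3 and none in EpCAM, so its level was not detectable at this depth beyond single reads, and its interval overlaps that of Tmigd3. These limits cover counting error only.

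Adora1 and Adora2b, the receptor genes that were measured, had opposite distributions. Adora1 (Entrez 11539, chromosome 1, 134199215 to 134235457) encodes the receptor coupled to inhibitory G proteins. Its level in FSClow ran from 26.3 to 61.6 CPM, with a median of 45.9 CPM. FSChi replicates 1 to 5 held 23.0, 24.1, 26.9, 20.3 and 45.7 CPM. The EpCAM replicates 1 to 5 stood at 0.589, 0, 0.187, 0.779 and 0.904 CPM. Every eGFP-positive library was therefore above every EpCAM library, while FSClow and FSChi overlapped. The log2 fold change over EpCAM was 6.25 ± 0.42 (SE, edgeR adjusted p = 2.9e-11) in FSClow and 5.65 ± 0.43 (SE, edgeR adjusted p = 5.0e-10) in FSChi. Between the gates it was -0.60 ± 0.28 for FSChi against FSClow, which did not pass (edgeR adjusted p = 0.125). That difference passed with the RSEM counts of the single-library files (-0.85, edgeR adjusted p = 0.0450), with the same counts without the nearly empty file (-0.82, edgeR adjusted p = 0.0486) and with log2(TPM + 1) values (-1.68 by limma, adjusted p = 0.0402), over alternatives that gave adjusted p from 0.0402 to 0.30. In the log2(TPM + 1) fit the median of all genes between the gates was -0.73, against -0.01 in the main fit. Because libraries hold many cells, fewer cells of a type and less RNA per cell cannot be told apart here or below. The interval of Adora1 overlaps the gene Mybph, and no source used here says that reads were counted by strand.

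Adora2b (Entrez 11541, chromosome 11, 62248984 to 62266452) encodes a receptor coupled to stimulatory G proteins that needs more adenosine than the other receptors to respond. FSClow held 2 counts of it in all, both in FSClow 4 (0.573 CPM), and none in the other 8 libraries. Levels in FSChi replicates 1 to 5 were 6.35, 0, 3.76, 3.55 and 4.25 CPM. Levels in EpCAM replicates 1 to 5 were 5.30, 6.65, 12.2, 6.86 and 3.77 CPM. FSClow thus lay below every EpCAM library and below every FSChi library but FSChi 2, the shallowest, which had no count. EpCAM held 189 counts, a ratio over FSClow of 95.8 (95% counting interval 26.2 to 796.8), and FSChi held 86, a ratio of 57.2 (95% counting interval 15.4 to 479.7). These intervals pool the counts of a group and cover counting error only, not the scatter between libraries. Without FSClow 4 the gene had no count in FSClow. Both differences passed (edgeR adjusted p = 3.2e-07 for FSClow against EpCAM and 2.1e-05 for FSChi against FSClow). The difference between FSChi and EpCAM did not pass, with means of 3.58 ± 2.29 CPM (SD, n = 5) and 6.95 ± 3.17 CPM (SD, n = 5) and a log2 difference of -0.88 ± 0.61 (SE, edgeR adjusted p = 0.312). It passed as lower with log2(TPM + 1) values (-1.71 by limma, adjusted p = 0.0140, over alternatives that gave 0.0140 to 0.565), a fit that holds the nearly empty file. The median of all genes in that fit was -0.82, against -0.02 in the main fit. The difference between the gates lost its call in the like fit with log2(TPM + 0.1) (3.06 by limma, adjusted p = 0.0765).

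**Figure D1:**
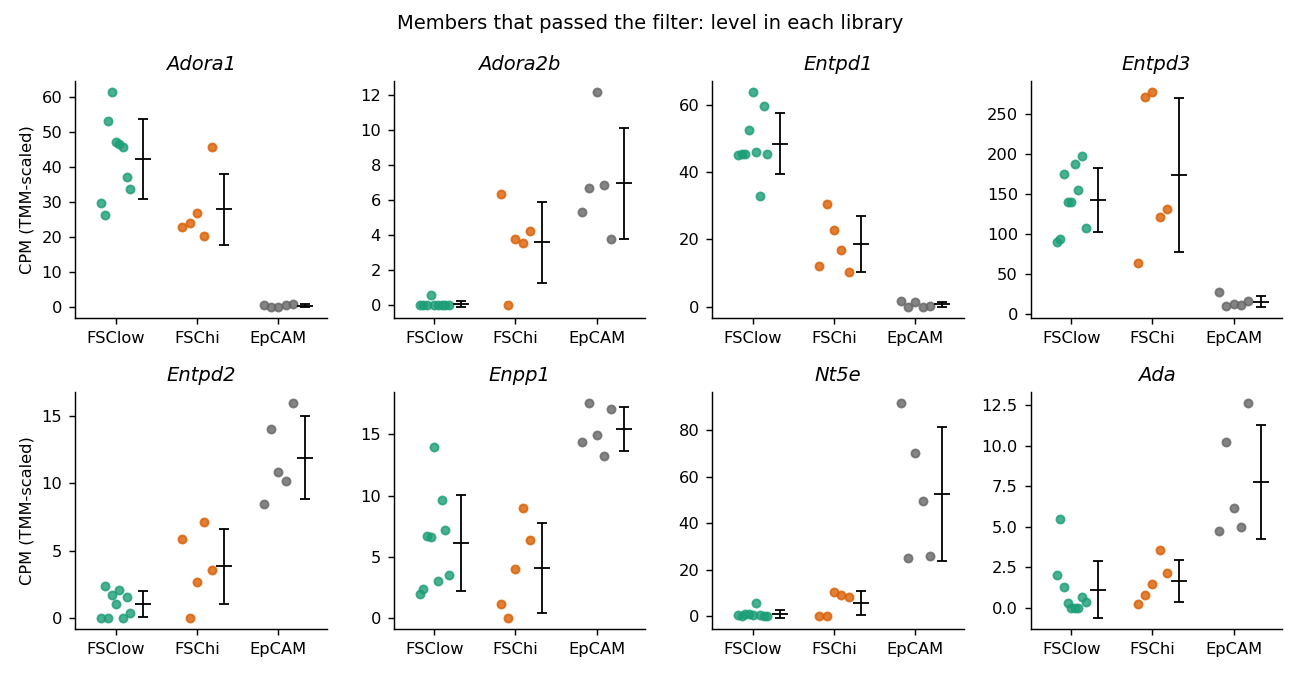
Level in each library of the 8 genes that passed the filter, in TMM-scaled CPM on a linear axis that differs between panels; each point is a library, and the bar beside the points is the group's mean with its SD (FSClow n = 9, FSChi n = 5, EpCAM n = 5). Adora1, Entpd1 and Entpd3 are high in both eGFP-positive gates, with EpCAM means of 0.492, 0.683 and 15.5 CPM, and the other 5 genes have their highest mean in EpCAM.

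The enzymes that remove phosphates from ATP and ADP divided in the same way. Entpd1 (Entrez 12495, chromosome 19, 40612366 to 40741602) encodes the ectonucleotidase known as CD39, which takes ATP and ADP to AMP. Across FSClow it ran from 33.0 to 63.8 CPM, with a median of 45.4 CPM. The FSChi replicates 1 to 5 stood at 12, 30.5, 22.8, 17.0 and 10.3 CPM. EpCAM replicates 1 to 5 held 1.77, 0, 1.5, 0 and 0.151 CPM. The 3 groups did not overlap in any pair, FSClow being highest and EpCAM lowest. The log2 fold change over EpCAM was 6.13 ± 0.54 (SE, edgeR adjusted p = 1.9e-09) in FSClow and 4.71 ± 0.54 (SE, edgeR adjusted p = 4.7e-07) in FSChi, or 6.72 and 5.33 without EpCAM replicate 1. FSChi was lower than FSClow by a log2 difference of -1.41 ± 0.38 (SE, edgeR adjusted p = 0.0087). That last call ended without the 5 libraries whose column did not match their own file (-1.22, edgeR adjusted p = 0.140) and with RSEM counts without the nearly empty file (-1.16, edgeR adjusted p = 0.0513), over alternatives that gave 7.2e-05 to 0.240. It also ended with log2(TPM + 0.1) values by limma, with or without the nearly empty file. Without that file it did not pass an unadjusted p of 0.05 either. The interval of Entpd1 overlaps the pseudogenes Gm16027 and Gm8783 and the noncoding RNA gene Gm41846, whose reads may not be separable from it.

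Entpd3 (Entrez 215446, chromosome 9, 120539818 to 120568327) encodes a related enzyme that also accepts ATP and ADP. FSClow libraries ran from 89.7 to 198 CPM, with a median of 140 CPM. FSChi replicates 1 to 5 held 64.0, 272, 277, 121 and 132 CPM. The EpCAM replicates 1 to 5 stood at 27.3, 9.74, 12.4, 12 and 16.0 CPM. All eGFP-positive libraries were above all EpCAM libraries, and the FSChi libraries spanned a wider range than the FSClow libraries on both sides. The log2 fold change over EpCAM was 3.21 ± 0.35 (SE, edgeR adjusted p = 6.0e-08) in FSClow and 3.48 ± 0.37 (SE, edgeR adjusted p = 1.6e-07) in FSChi. The difference between the gates did not pass (0.27 ± 0.29, SE, edgeR adjusted p = 0.546), and the sign of that value turned on the TPM scales.

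Entpd2 (Entrez 12496, chromosome 2, 25395874 to 25401323) encodes the member of this family that prefers ATP and leaves ADP, and in taste buds it marks the glial-like supporting cells. Its level in FSClow ran from 0 to 2.39 CPM, with a median of 1.08 CPM. Levels in FSChi replicates 1 to 5 were 5.88, 0, 2.69, 7.09 and 3.54 CPM. Levels in EpCAM replicates 1 to 5 were 8.44, 14, 10.9, 10.1 and 16.0 CPM. EpCAM was above every eGFP-positive library, and 4 of the 5 FSChi libraries were above every FSClow library. FSClow was lower than EpCAM by a log2 difference of -3.40 ± 0.59 (SE, edgeR adjusted p = 3.9e-05). FSChi against EpCAM gave -1.54 ± 0.64 (SE, edgeR adjusted p = 0.0818), and the difference passed with DESeq2 (-1.66, adjusted p = 0.0189) and with only the libraries of both groups (-1.52, edgeR adjusted p = 0.0361), over alternatives that gave 0.0032 to 0.311. FSChi was higher than FSClow by 1.86 ± 0.61 (SE, edgeR adjusted p = 0.0276), a call that ended without FSChi replicate 1 (adjusted p = 0.0673) or FSChi replicate 4 (adjusted p = 0.0985) and without the 5 unmatched columns (1.66, edgeR adjusted p = 0.277). The call also ended with RSEM counts, on the TPM scales and with the authors' normalized values. It stayed in 23 of 33 alternatives, which gave log2 values from 0.44 to 2.11 and adjusted p by edgeR, DESeq2 or limma from 0.0042 to 0.693.

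Nt5e, whose product CD73 makes adenosine from AMP at the cell surface (Entrez 23959, chromosome 9, 88327609 to 88372089), was low in the eGFP-positive cells. Across FSClow it ran from 0 to 5.75 CPM, with a median of 0.403 CPM, and FSClow 6 held 19 of the 28 counts of that group. The FSChi replicates 1 to 5 stood at 0, 0, 10.6, 8.96 and 8.15 CPM. EpCAM replicates 1 to 5 held 91.9, 25.0, 70.0, 49.4 and 25.9 CPM. EpCAM lay above all other libraries, and FSChi fell into 2 libraries with no count and 3 above every FSClow library. The log2 fold change over EpCAM was -5.65 ± 0.80 (SE, edgeR adjusted p = 5.0e-06) in FSClow, or -7.02 without FSClow replicate 6, and -3.12 ± 0.83 (SE, edgeR adjusted p = 0.0086) in FSChi. FSChi against FSClow gave 2.53 ± 0.84 (SE, edgeR adjusted p = 0.0315), or 3.90 without FSClow replicate 6. This last call ended with DESeq2 (2.54, adjusted p = 0.0806), with no filter on low counts (2.56, edgeR adjusted p = 0.0656), without FSClow replicate 8 (adjusted p = 0.0520) and without FSChi replicate 3, 4 or 5 (adjusted p = 0.0901, 0.0778 and 0.0616). It also ended with RSEM counts and log2(TPM + 0.1), each with or without the nearly empty file. The same held for log2(TPM + 1) and the authors' normalized values. Of 33 alternatives 20 left the call as it was, with adjusted p by edgeR, DESeq2 or limma from 0.0015 to 0.487 over all of them. The 3 FSChi libraries that held Nt5e are the 3 whose table column did not match their own file. With only matched libraries FSChi held no count of Nt5e, so neither fitted value is a bound: against EpCAM the call stayed (edgeR adjusted p = 0.0042), and against FSClow the fitted value turned to -4.93 (edgeR adjusted p = 0.281). Against EpCAM the FSChi value was also larger with the authors' normalized values (-4.41 by limma) and with log2(TPM + 0.1) (-5.39 by limma). The median of all genes also moved in these fits, to -0.20 and -1.56 from -0.02.

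**Figure D2:**
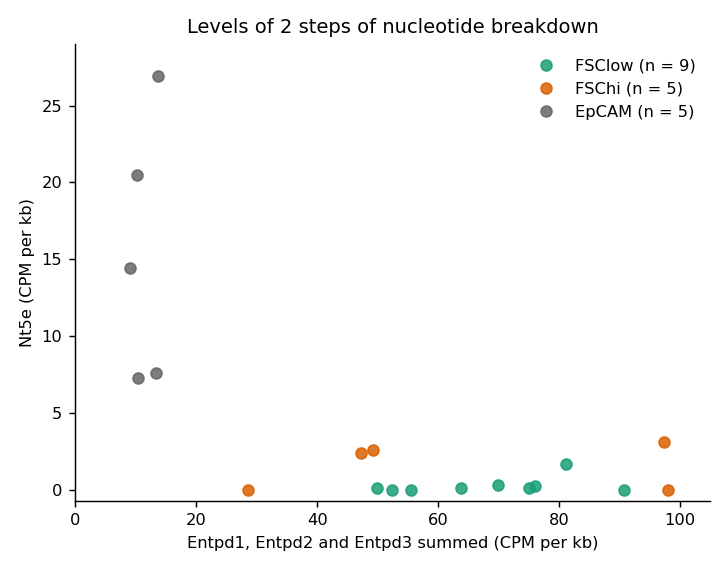
Summed level of Entpd1, Entpd2 and Entpd3 (horizontal axis) against the level of Nt5e (vertical axis), both in CPM per kilobase of transcript, 1 point a library. EpCAM libraries lie at 9.01 to 13.7 on the horizontal axis and 7.31 to 26.9 on the vertical axis, and all eGFP-positive libraries lie at 28.6 or more and at 3.11 or less.

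Enpp1 (Entrez 18605, chromosome 10, 24637914 to 24712159) encodes a pyrophosphatase that makes AMP and pyrophosphate from ATP. FSClow libraries ran from 1.98 to 14 CPM, with a median of 6.59 CPM. FSChi replicates 1 to 5 held 1.18, 0, 4.03, 8.96 and 6.38 CPM. The EpCAM replicates 1 to 5 stood at 14.3, 17.6, 15.0, 13.2 and 17.0 CPM. Only FSClow 5 reached into the EpCAM range. The log2 fold change over EpCAM was -1.33 ± 0.47 (SE, edgeR adjusted p = 0.0235) in FSClow and -1.81 ± 0.56 (SE, edgeR adjusted p = 0.0202) in FSChi, and the difference between the gates did not pass (-0.49 ± 0.51, SE, edgeR adjusted p = 0.533). With TPM the FSClow call was lost (limma, adjusted p = 0.311 with a pseudocount of 0.1 and 0.0912 with 1), over alternatives that gave 0.0036 to 0.311. Without the 5 unmatched columns the FSChi value was -4.19 (edgeR adjusted p = 0.0091).

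Ada (Entrez 11486, chromosome 2, 163726571 to 163750239), whose product ends the adenosine signal and also works inside cells, was present at few counts outside EpCAM. Its level in FSClow ran from 0 to 5.46 CPM, with a median of 0.352 CPM, and FSClow 2 held 16 of 29 counts. Levels in FSChi replicates 1 to 5 were 0.235, 0.804, 1.48, 3.55 and 2.13 CPM. Levels in EpCAM replicates 1 to 5 were 4.71, 10.2, 6.18, 4.99 and 12.7 CPM. FSChi lay below EpCAM in every library, and in FSClow only replicate 2 overlapped EpCAM. FSClow was lower by a log2 difference of -2.80 ± 0.72 (SE, edgeR adjusted p = 0.0024), or -3.87 without FSClow replicate 2. FSChi against EpCAM gave -2.16 ± 0.83 (SE, edgeR adjusted p = 0.0579) and passed with DESeq2 (-2.32, adjusted p = 0.0284), with only the libraries of both groups (-2.17, edgeR adjusted p = 0.0118) and without FSClow replicate 2, 5, 6 or 7 or FSChi replicate 4 (edgeR adjusted p from 0.0231 to 0.0496). Without the 5 unmatched columns it was -4.19 (edgeR adjusted p = 0.125). FSChi against FSClow gave 0.65 ± 0.78 (SE, edgeR adjusted p = 0.592).

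**Figure D3:**
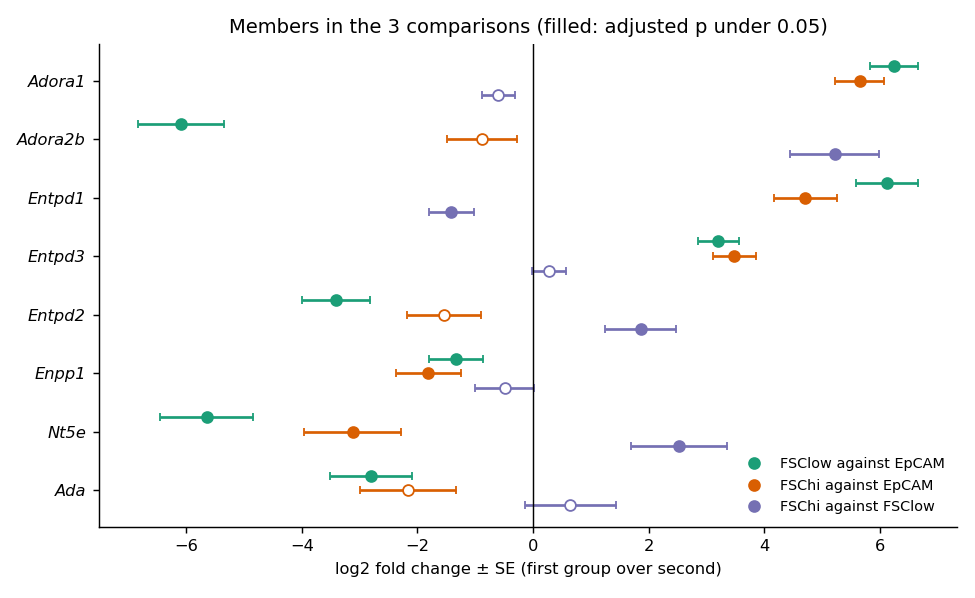
Log2 fold change with its SE (horizontal axis) of the 8 tested genes in the 3 comparisons, filled where the edgeR adjusted p was under 0.05. Adora1, Entpd1 and Entpd3 lie right of 0 in both comparisons with EpCAM, and Adora2b, Entpd2 and Nt5e lie left of 0 for FSClow against EpCAM and right of 0 for FSChi against FSClow; the value of Adora2b rests on 2 counts in FSClow.

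The first comparison asked how the low-scatter brush cells differ from eGFP-negative epithelium. In FSClow 3 of the 8 tested genes were higher than in EpCAM (Adora1, Entpd1 and Entpd3) and 5 were lower (Adora2b, Entpd2, Nt5e, Enpp1 and Ada). Among all 13340 genes tested 45.1% were called, 22.0% as higher and 23.1% as lower, so calls were common. With another scaling (relative log expression) 38.2% of the calls over all genes were higher in place of 48.7%, the median of all genes moving to -0.14 from 0.05 on the log2 scale, and every one of the 8 calls stayed. The second comparison set the high-scatter brush cells against the same EpCAM libraries, which both comparisons share. In FSChi Adora1, Entpd1 and Entpd3 were again higher, and Nt5e and Enpp1 were lower, while Adora2b, Entpd2 and Ada did not pass. There 25.6% of all genes were called, 13.5% as higher and 12.2% as lower. The third comparison asked how the brush cell gates differ. FSChi was higher in Adora2b, Entpd2 and Nt5e and lower in Entpd1, against 24.8% of all genes called, 15.5% as higher and 9.30% as lower. Without FSChi replicate 4 Adora2b remained the single higher call. Each gene passed the filter through the group where it was high, so these counts are no support on their own.

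Levels of different genes can be set in order only per length of transcript. Per kilobase, Entpd3 stood highest in FSClow with 43.6 ± 12.2 CPM per kb (SD, n = 9), followed by Entpd1 with 24.1 ± 4.53 CPM per kb and Adora1 with 10.2 ± 2.78 CPM per kb. The libraries of Entpd3 and Entpd1 overlapped, those of Entpd1 and Adora1 did not, and the next gene, Enpp1, stood at 1.62 ± 1.04 CPM per kb. FSChi had the same order, with 52.8 ± 29.3, 9.23 ± 4.14 and 6.76 ± 2.45 CPM per kb (SD, n = 5), Entpd1 and Adora1 overlapping. Its other 5 tested genes lay between 1.09 and 2.03 CPM per kb on average and overlapped each other. In EpCAM Nt5e led with 15.4 ± 8.45 CPM per kb (SD, n = 5), followed by Ada with 6.93 ± 3.14 CPM per kb, Entpd2 with 6.27 ± 1.61 CPM per kb, Entpd3 with 4.72 ± 2.13 CPM per kb, Enpp1 with 4.09 ± 0.484 CPM per kb and Adora2b with 3.77 ± 1.72 CPM per kb. Each of these neighbours overlapped the next, and Enpp1 and Adora2b changed places when RSEM's effective length was used (4.47 and 4.56 CPM per kb). Entpd1 and Adora1 came last there, at 0.340 ± 0.435 and 0.119 ± 0.0932 CPM per kb. The summed level of Entpd1, Entpd2 and Entpd3 was 68.3 ± 13.9 CPM per kb in FSClow, 64.1 ± 31.7 CPM per kb in FSChi and 11.3 ± 2.07 CPM per kb in EpCAM, whereas that of Nt5e was 0.293 ± 0.534, 1.62 ± 1.51 and 15.4 ± 8.45 CPM per kb. These sums describe transcript levels of the genes named, not enzyme activity. They leave out Enpp1, which was lower in both gates, and Acpp, described with the other ectonucleotidases.

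Markers of other cell types differed between the groups in which these genes differed. In EpCAM the markers of olfactory sensory neurons summed to 4626 to 7575 CPM, of secretory and gland cells to 9796 to 43327 CPM, of basal cells to 2007 to 5236 CPM, of sustentacular cells to 2867 to 4716 CPM and of ionocytes and microvillar cells to 1733 to 4273 CPM. FSClow libraries held 94.6 to 316, 54.5 to 535, 48.2 to 145, 1072 to 1334 and 48.2 to 65.4 CPM of the same lists. Most of the sustentacular sum in FSClow came from Hepacam2. In FSChi it was the largest single part, with a mean of 728 CPM, beside 383 CPM of Cbr2 and 192 CPM of Cyp2g1. Hepacam2 alone stood at 672 to 1105 CPM in FSClow, 467 to 988 CPM in FSChi and 35.1 to 79.6 CPM in EpCAM. FSClow was lower in 13 of 14 tested olfactory neuron, 11 of 14 secretory, 10 of 12 basal, 9 of 11 sustentacular and 7 of 8 ionocyte markers. Over all genes tested 23.1% were called lower in FSClow than in EpCAM. Entpd1 and Nt5e are also known from leukocytes and vessel lining, so those lists matter too. Leukocyte markers, of which 3 of 22 were tested, summed to 12.2 to 67.2 CPM in FSClow, 13.1 to 600.3 CPM in FSChi and 424 to 3345 CPM in EpCAM, where Lyz2, which some epithelial cells also make, alone stood at 416 to 3339 CPM. Of the 22, 6 had no count in FSClow, 6 none in FSChi and 10 none in EpCAM, among them the T cell gene Cd3e in every group and Ptprc in EpCAM. Endothelial markers, 2 of 10 tested, summed to 13.4 to 85.9, 17.2 to 58.7 and 5.57 to 13.3 CPM in FSClow, FSChi and EpCAM, of which Tek alone held 902, 285 and 4 counts, while Cdh5 held 7, 2 and 2. The part of other cell types in the levels of the 8 genes was not tested.

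FSChi libraries differed among themselves in these lists and in the genes that set FSChi apart from FSClow. Secretory and gland cell markers summed to 7975, 512, 3298, 21055 and 13534 CPM in FSChi replicates 1 to 5. Olfactory sensory neuron markers summed to 4298, 253, 1789, 3972 and 2129 CPM, and basal cell markers to 1823, 209, 153, 859 and 1008 CPM. FSChi 2, which had no count of Adora2b, Entpd2, Nt5e or Enpp1, was lowest in the first of these lists and in the olfactory list, and FSChi 1, with no count of Nt5e, was the highest in basal and in olfactory markers. Gng13 of the olfactory list had its lowest mean in EpCAM, 57.9 CPM, against 83.5 CPM in FSClow and 254 CPM in FSChi. Every FSChi library held at least 139 CPM of Gng13, so much of the olfactory sum of FSChi 2 came from that gene. Ionocyte and microvillar markers summed to 41.6, 32.1, 443, 996 and 27.6 CPM, and sustentacular markers to 1379, 1450, 1238, 2067 and 1577 CPM. Against FSClow, FSChi was higher in all 14 olfactory neuron markers, 8 of 14 secretory, 8 of 12 basal and 5 of 8 ionocyte markers tested, and in 4 of 9 ciliated cell markers, while 5 of 11 sustentacular markers were higher and 1 lower. Over all genes tested 15.5% were called higher and 9.30% lower in FSChi than in FSClow. Stromal and fibroblast markers, a class in which Nt5e is also known, summed to 178, 4.02, 85.1, 181 and 162 CPM in FSChi replicates 1 to 5, against 6.04 to 32.2 CPM in FSClow and 160 to 458 CPM in EpCAM. Of the 3 of 10 tested, 2 were higher in FSChi than in FSClow, and none of the 10 was without a count in any group. Most of these sums in FSChi and EpCAM came from Dcn (means of 70.9 and 133 CPM) and Rgs5 (29.5 and 177 CPM). No other gene of the list had a mean above 5.28 CPM in any group. Pdgfra and Acta2 had their lowest means in EpCAM, 0.147 and 2.48 CPM. The defining collagen gene Col1a1 had 7 counts in FSClow, 42 in FSChi and 42 in EpCAM. The part of these cells in the differences of Adora2b, Entpd2 and Nt5e between the gates was not tested, and FSChi 2 is also the shallowest library.

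**Figure D4:**
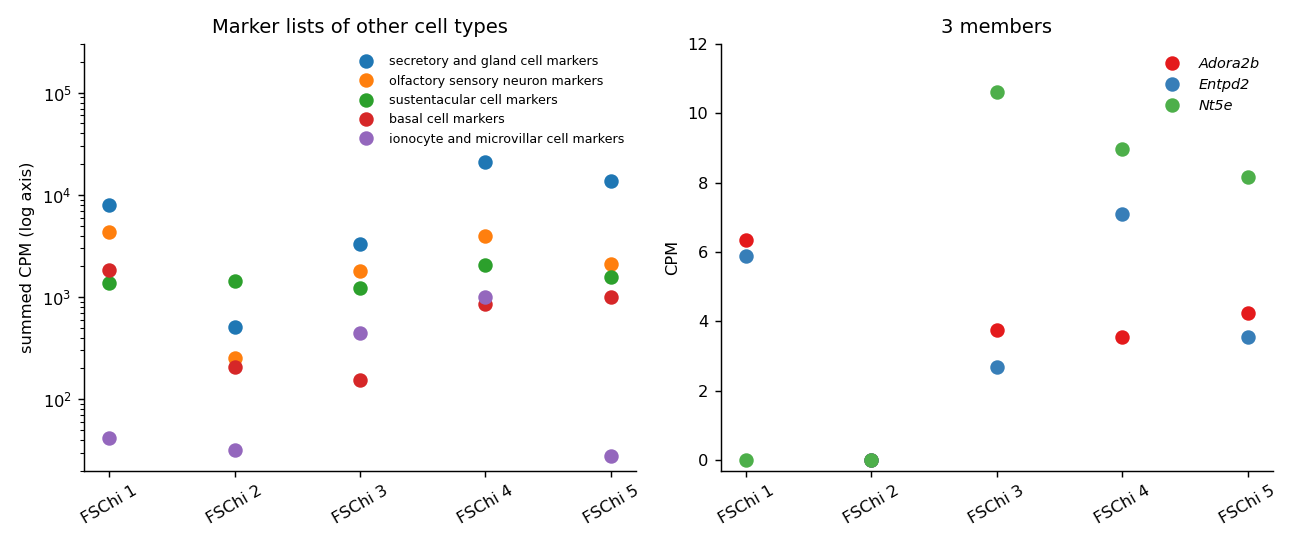
FSChi libraries 1 to 5 (horizontal axis, no order implied): summed CPM of 5 marker lists of other cell types on a log axis (left) and CPM of Adora2b, Entpd2 and Nt5e on a linear axis (right). FSChi 2 has none of the 3 genes and the lowest secretory and olfactory neuron sums, 512 and 253 CPM, and Nt5e is present in FSChi 3, 4 and 5 with 10.6, 8.96 and 8.15 CPM.

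Of the other ectonucleotidases, 11 of 16 listed genes were tested. In FSClow 5 were higher than in EpCAM and 3 were lower, in FSChi 3 were higher and the other 8 were not called, and between the gates 3 were higher and 2 lower in FSChi. Over all genes 45.1%, 25.6% and 24.8% were called in these comparisons. The median log2 fold change of the list was 0.16, 0.16 and -0.0047, against 0.05, -0.02 and -0.01 over all genes. Enpp4, a membrane hydrolase of dinucleoside polyphosphates, was higher by 2.22 ± 0.25 in FSClow and 1.72 ± 0.27 in FSChi on the log2 scale, and Entpd7, an enzyme of internal membranes, by 1.96 ± 0.36 and 2.30 ± 0.40. Enpp5 was higher in FSChi by 1.26 ± 0.33, with 108 ± 42.2 CPM against 45.2 ± 19.6 CPM in EpCAM, a sign that turned on the TPM scales and a call that ended without the 5 unmatched columns (0.95, edgeR adjusted p = 0.234). In FSClow Enpp5 was higher by 1.31 ± 0.31, with 112 ± 39.1 CPM, and its difference between the gates did not pass (-0.05, edgeR adjusted p = 0.923). Alpl, the alkaline phosphatase that can also make adenosine from AMP, was lower in FSClow by a log2 difference of -5.14 ± 0.84, or -6.53 without FSClow replicate 4. Acpp, an acid phosphatase of which a membrane form also makes adenosine from AMP, was chosen after its values were seen. It had 63.7 ± 18.9 CPM in FSClow (SD, n = 9), 36.2 ± 16.5 CPM in FSChi (SD, n = 5) and 20.5 ± 5.69 CPM in EpCAM (SD, n = 5). Every FSClow library was above every EpCAM library, and FSChi overlapped both. The log2 difference between FSClow and EpCAM was 1.64 ± 0.29 (SE, edgeR adjusted p = 4.2e-05), so that Alpl and Nt5e were lower and Acpp higher in FSClow. That call was lost only on the TPM scales with the nearly empty file, among 34 alternatives. FSChi against EpCAM gave 0.80 ± 0.31 (edgeR adjusted p = 0.0598), and FSChi against FSClow -0.84 ± 0.28 (edgeR adjusted p = 0.0286). The last call ended without FSClow replicate 4 or 5, without FSChi replicate 1, 3 or 4 (adjusted p from 0.0511 to 0.0997) and without the 5 unmatched columns (-0.84, adjusted p = 0.248). Enpp3, an ATP-cutting relative of Enpp1, had 3 counts in FSClow, 77 in FSChi and 250 in EpCAM, and both differences from FSClow were called, that of FSChi not without the 5 unmatched columns (edgeR adjusted p = 0.0870). Alpl and Enpp2, the latter the gene of the phospholipase autotaxin, were called higher in FSChi than in FSClow, and both calls ended without FSChi replicate 4 (edgeR adjusted p = 0.291 and 0.192) and without the 5 unmatched columns (0.377 and 0.683).

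Of the genes for intracellular adenosine and purine conversion 20 of 23 were tested, and 4 were higher and 4 lower in FSClow than in EpCAM, 3 and 3 in FSChi than in EpCAM, and 3 and 1 in FSChi than in FSClow, against 45.1%, 25.6% and 24.8% of all genes called. Ampd3, an AMP deaminase, was higher in FSClow by 2.83 ± 0.38 and in FSChi by 2.04 ± 0.40 on the log2 scale. Adk, adenosine kinase, which returns adenosine to AMP, was higher in FSChi by 1.57 ± 0.24 and in FSClow by 1.18 ± 0.22. Ak1, an adenylate kinase, was lower in FSClow by a log2 difference of -3.42 ± 0.28, and Gda, guanine deaminase, by -5.53 ± 0.60, or -6.28 without FSClow replicate 1. Both were higher in FSChi than in FSClow, by 2.39 ± 0.28 and 3.21 ± 0.64, the latter being 3.96 without FSClow replicate 1. The list's median was 0.00, 0.11 and 0.21 in the 3 comparisons, close to that of all genes (0.05, -0.02 and -0.01). Nt5c2, a cytosolic nucleotidase, was lower in FSChi than in FSClow by -0.83 ± 0.22, and the call was lost with RSEM counts (-0.73, edgeR adjusted p = 0.0570).

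Of 7 nucleoside transporter genes 3 were tested, with list medians of -1.56, -1.91 and -0.23. Over all genes the medians were 0.05, -0.02 and -0.01, and 45.1%, 25.6% and 24.8% were called. Slc29a1, the equilibrative transporter that carries adenosine across the cell membrane, had 2.31 ± 2.24 CPM in FSClow (SD, n = 9), 8.74 ± 6.43 CPM in FSChi (SD, n = 5) and 34.4 ± 6.65 CPM in EpCAM (SD, n = 5). FSClow was lower than EpCAM by a log2 difference of -3.84 ± 0.61 (SE, edgeR adjusted p = 1.3e-05). FSChi was called lower than EpCAM and higher than FSClow, and the former call ended without FSChi replicate 2, 3 or 5 or EpCAM replicate 2, 3 or 4 (adjusted p from 0.0597 to 0.0822), the latter without FSChi replicate 1 or 4 (adjusted p = 0.0922 and 0.0575). Both ended without the 5 unmatched columns (adjusted p = 0.277 and 0.171). Slc28a3, a concentrative transporter, was called lower in both gates. Its FSClow call ended without FSClow replicate 1, 2, 3, 6, 8 or 9 or EpCAM replicate 1, 2 or 3, and its FSChi call without FSChi replicate 3 or EpCAM replicate 1, and without the 5 unmatched columns both ended (adjusted p = 0.319 and 0.364). Slc29a3, an intracellular transporter, was called higher in FSClow (0.60 ± 0.24 on the log2 scale, edgeR adjusted p = 0.0445), a call that was lost in 31 of 34 alternatives and held in the fits without FSClow replicate 6 or 8 or FSChi replicate 2.

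Of the genes for nucleotide release, 8 of 12 were tested and Calhm3 was not analysed here. In FSClow 6 of the 8 were lower than in EpCAM, with a list median of -2.70, and in FSChi 6 of the 8 were higher than in FSClow, with a list median of 3.61. Over all genes 23.1% were lower in the former comparison and 15.5% higher in the latter, with medians of 0.05 and -0.01. Calhm1 encodes the channel through which taste cells release ATP. It had no count in FSClow and 1 count in EpCAM, against 487 counts in FSChi, where its libraries ran from 2.96 to 62.7 CPM with a mean of 29.6 ± 21.6 CPM (SD, n = 5). Every FSChi library was above every other library, and both differences were called (edgeR adjusted p = 5.0e-06 against EpCAM and 1.0e-06 against FSClow). Panx1, the gene of the ATP release channel pannexin, was at 2.69 ± 2.50 CPM in FSClow (SD, n = 9), 46.8 ± 27.5 CPM in FSChi (SD, n = 5) and 23.7 ± 9.27 CPM in EpCAM (SD, n = 5). It was lower in FSClow than in EpCAM by a log2 difference of -3.06 ± 0.55 and higher in FSChi than in FSClow by 4.04 ± 0.55. Calhm2 was higher in FSChi than in FSClow by 4.2 ± 0.70, or 5.68 without FSClow replicate 5. The connexin genes Gja1 and Gjb2 were lower in FSClow by log2 differences of -6.54 ± 0.84 and -5.50 ± 0.66 and in FSChi by -2.41 ± 0.78 and -2.32 ± 0.64. For Gja1 the latter was -4.09 without FSChi replicate 5, and its call was lost when FSChi replicate 2 or EpCAM replicate 5 was left out (edgeR adjusted p = 0.0569 and 0.0528). That call was also lost with DESeq2, with no filter on low counts and with only the libraries of both groups. Over these 5 fits the adjusted p by edgeR or DESeq2 ran from 0.0502 to 0.0988.

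Adenosine receptors act through G proteins on adenylyl cyclase, and 18 of 21 genes of that step were tested. Of these, 6 were higher and 4 lower in FSClow than in EpCAM, 3 and 3 in FSChi than in EpCAM, and 5 and 2 in FSChi than in FSClow. Over all genes 45.1%, 25.6% and 24.8% were called, and the list's medians were 0.16, -0.11 and -0.08, against 0.05, -0.02 and -0.01. Gnai2, an inhibitory subunit of the kind to which the Adora1 receptor couples, was higher by 2.32 ± 0.27 in FSClow and 2.27 ± 0.29 in FSChi on the log2 scale, with means of 110 ± 21.5, 106 ± 36.4 and 22.0 ± 9.95 CPM in FSClow, FSChi and EpCAM. Gnas, the general stimulatory subunit, was higher in FSChi by 0.90 ± 0.20, a sign that turned on the TPM scales with the nearly empty file. In FSClow Gnas was higher by 0.75 ± 0.18, and its difference between the gates did not pass (0.15, edgeR adjusted p = 0.567). Adcy9, a cyclase gene, was higher in FSChi by 1.89 ± 0.40, a call that ended without the 5 unmatched columns (1.70, edgeR adjusted p = 0.0818). In FSClow Adcy9 was higher by 1.99 ± 0.37, and its difference between the gates did not pass (-0.11, edgeR adjusted p = 0.859). Gnal and Adcy3, the G protein and cyclase of olfactory neurons, were lower in FSClow by log2 differences of -4.72 ± 0.40 and -4.34 ± 0.39 and higher in FSChi than in FSClow by 3.08 ± 0.39 and 3.51 ± 0.39. Both also stand in the olfactory neuron marker list, whose summed levels are given above. Prkar1b, a regulatory subunit of protein kinase A, had 2 counts in FSClow, 36 in FSChi and 111 in EpCAM, and its call between the gates ended without those columns (edgeR adjusted p = 0.110).

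Receptors for the nucleotides themselves were mixed, with 5 of 15 P2 receptor genes tested. In FSClow 2 were higher and 3 lower than in EpCAM, in FSChi 2 and 2, and between the gates P2ry1 alone was called, as higher in FSChi, with list medians of -0.97, -0.59 and 0.38. Over all genes 45.1%, 25.6% and 24.8% were called in the 3 comparisons, with medians of 0.05, -0.02 and -0.01. P2ry2, a receptor for ATP and UTP, was at 28.4 ± 8.23, 25.1 ± 8.32 and 6.0 ± 2.41 CPM in FSClow, FSChi and EpCAM. P2rx1, an ATP-gated channel, had 133 counts in FSClow, 73 in FSChi and 3 in EpCAM. P2ry1, a receptor for ADP, went the other way, with 2 counts in FSClow, 49 in FSChi and 578 in EpCAM. P2ry14, a receptor for UDP sugars, was lower by a log2 difference of -3.11 ± 0.48 in FSClow and -2.05 ± 0.55 in FSChi. P2rx4 was lower in FSClow by -0.97 ± 0.24 and was not called in FSChi (-0.59 ± 0.28, edgeR adjusted p = 0.130).

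**Figure D5:**
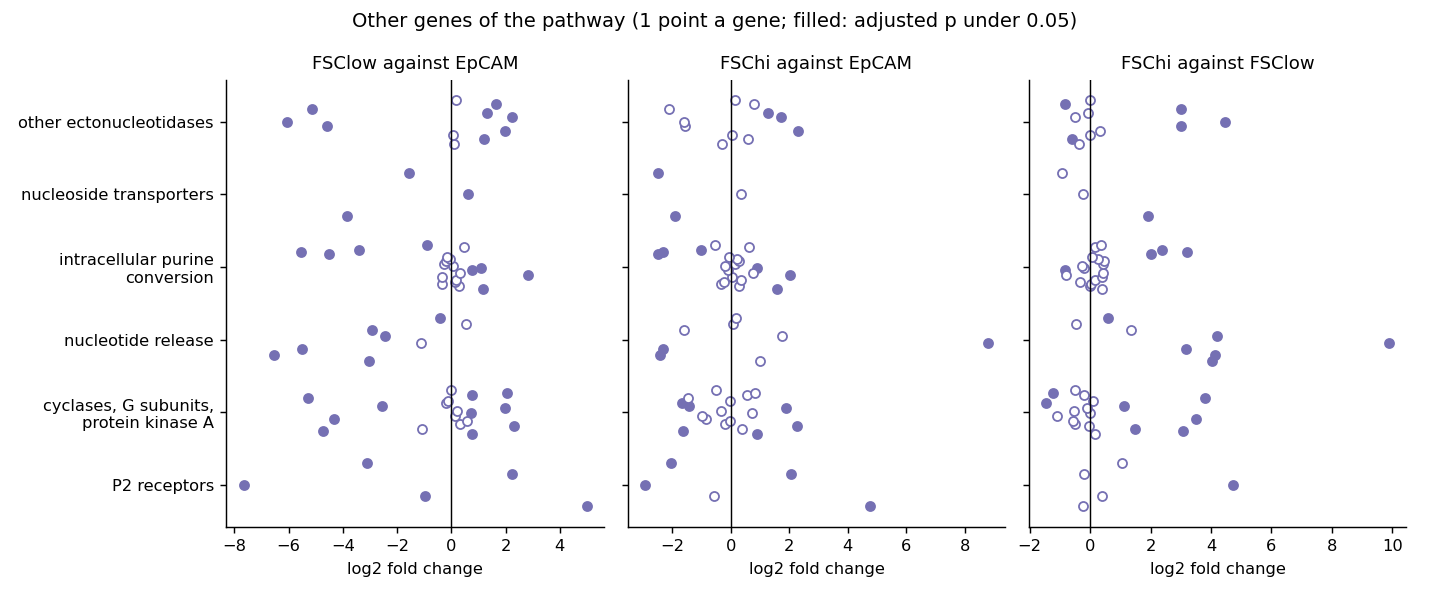
Log2 fold change (horizontal axis) of the tested genes of 6 lists of the pathway outside the 10 genes, 1 point a gene, in the 3 comparisons; points are filled where the edgeR adjusted p was under 0.05, and values of genes with no or few counts in a group are fitted values, not bounds. Nucleotide release genes lie mostly left of 0 for FSClow against EpCAM (6 of 8 called lower, against 23.1% of all genes) and right of 0 for FSChi against FSClow (6 of 8 called higher, against 15.5% of all genes, Calhm1 farthest).

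Genes whose levels followed those of the 10 most closely over the 19 libraries were sought among 11613 tested genes by Pearson's r of log2 CPM. Since all points share their libraries and the groups differ, r mainly reflects the differences between groups and is given as a description. Adora1 was most like Flvcr2 (r = 0.989), Alox5 (r = 0.988), the 5-lipoxygenase gene, and Stard5 (r = 0.988). Entpd1 was most like Adgrg6 (r = 0.984), Prkcb (r = 0.983) and Fat3 (r = 0.980), and Entpd3 like Fes (r = 0.984), Bmx (r = 0.965) and Prx (r = 0.964). Alox5 and Bmx also stand in the list of tuft and brush cell markers. Entpd2 was most like Stk26 (r = 0.954), Lhx2 (r = 0.945) and Mob3b (r = 0.944), and Nt5e like Ccn2 (r = 0.946), Ppargc1a (r = 0.945) and Pros1 (r = 0.930). Enpp1 and Ada had weaker matches, the closest being Cnppd1 (r = 0.907) and Btbd17 (r = 0.894). Adora2b fell below the mean level set for this search.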

How the data were processed

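RNA sequencing libraries of FSClow (n = 9), FSChi (n = 5) and EpCAM (n = 5) cells were compared. The submitters' processing notes name, without roles, mm10, DESeq2, featureCounts, RSEM 1.2.21, Picard 1.1073 and STAR 2.4.2a. The authors deposited raw counts of 27179 gene identifiers. They also deposited normalized values, a signal made by dividing counts by a size factor per library: 100% of values gave whole reads within 0.01, and edgeR on those reads, added after seeing the data, called 5855, 3372 and 3265 genes in the 3 comparisons. The single-library files hold, per the file headers, expected counts, rounded here, and TPM. Symbols came from RefSeq for 25275 identifiers and from identical rows for 580; the other 1324 held 0.982% of counts.

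Counts were filtered (filterByExpr by group), scaled by TMM and fitted with edgeR 4.0.16 (R 4.3.3) in a robust quasi-likelihood model with group alone over all 19 libraries. P-values were adjusted over 13340 genes by Benjamini-Hochberg, and genes under 0.05 are called; SE came from the F statistic. The scripts were tested on simulated data. Per-kilobase levels used the median RSEM gene length. Alternatives used limma 3.58.1 and DESeq2 1.42.0. Named are all 10 genes, of each pathway list the 3 genes with the smallest p per comparison, Acpp, and the 3 genes with the highest r to each gene whose mean log2 CPM reached 1. The genes and lists were chosen with earlier results of these data known. No library was left out.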

Additional observations from a re-analysis of the deposited data

Results flagged for a closer look

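Dixon's ratio (the gap of an extreme library to its neighbour over the group's range, on log2 CPM) was computed for 23 combinations of gene and group. Chance passes its 95% limit in about 1 in 20 groups. Adora2b in FSChi replicate 2 stood at 0 CPM, with a ratio of 0.80 against a limit of 0.71, while the other 4 FSChi libraries held 3.55 to 6.35 CPM. Nt5e in FSClow replicate 6 stood at 5.75 CPM, with a ratio of 0.527 against a limit of 0.49, the other 8 FSClow libraries holding at most 1.15 CPM.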

How the results depend on the processing

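Over 34 alternative fits, the 24 log2 fold changes of the 8 tested genes gave 755 values on the same side of the threshold, 30 that lost and 19 that gained a call, and 5 of opposite sign. Adora1, Entpd1 and Entpd3 were called higher in both gates than in EpCAM, and Adora2b, Entpd2, Nt5e and Ada lower in FSClow, in every fit that tested them. The values of opposite sign were all for FSChi against FSClow: Entpd3 at -0.30 on the log2(TPM + 0.1) scale, -0.29 on the log2(TPM + 1) scale and -0.13 on the former without the nearly empty file, and Nt5e at -4.93 and Ada at -1.29 with only the libraries that match their own file. Of 51 called values of named pathway genes, signs turned for FSChi against EpCAM in Enpp5 (-0.81 on log2(TPM + 0.1), -0.17 on log2(TPM + 1)), Adk (-0.43 on log2(TPM + 0.1)) and Gnas (-1.24 and -0.59), and for FSChi against FSClow in Prkar1b (-0.0215 and -0.29). A further 148 values lost a call, 47 of them on these 2 TPM scales. With matched libraries only, Gda also lost its call for FSChi against EpCAM (-2.22, edgeR adjusted p = 0.190). The cause was not tested, and the TPM fits hold the nearly empty FSChi 3 file. For FSChi against EpCAM the median of all genes was -1.56 with log2(TPM + 0.1) and -0.82 with log2(TPM + 1). For FSChi against FSClow it was -1.40 and -0.73.

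For FSChi against EpCAM, 2 of the 10 genes were lower, against 4 with DESeq2, with only the 2 groups and with the authors' normalized values, and 5 with log2(TPM + 1). Over all genes the lower calls numbered 1624 of 13340, against 2146 of 13340 with DESeq2 and 1896 of 13391 with only the 2 groups. They numbered 2273 of 12993 with the authors' normalized values and 2208 of 16017 with log2(TPM + 1). For FSChi against FSClow, 3 were higher, against 1 with RSEM counts (with or without the nearly empty file), with log2(TPM + 1), with the authors' normalized values, with matched libraries only and with log2(TPM + 0.1) without the nearly empty file. None was higher by limma on log2(TPM + 0.1), where 1 passed an unadjusted p of 0.05, nor by edgeR with only the 2 groups, where 4 genes were left to test and 0 passed unadjusted. Over all genes 2069 were higher in FSChi than in FSClow. In the fits named here that number ran from 168 with log2(TPM + 0.1) to 1973 with the authors' normalized values. In that comparison 1 of the 10 genes was lower, against 2 with RSEM counts and log2(TPM + 1) and 0 with log2(TPM + 0.1) (3 unadjusted), with the same scale without the nearly empty file (0 unadjusted) and with matched libraries only (3 unadjusted). Over all genes 1241 were lower, and in these fits from 171 with log2(TPM + 0.1) to 809 with RSEM counts. Leaving out 1 library at a time gave 3 higher and 5 lower for FSClow against EpCAM, 3 higher and 2 to 3 lower for FSChi against EpCAM, and 1 to 3 higher and 1 lower for FSChi against FSClow.

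Over all genes, calls for FSClow against EpCAM numbered 6017, from 5430 to 6508 without 1 library, and 2757 and 3559 with log2(TPM + 0.1) and log2(TPM + 1). For FSChi against EpCAM they numbered 3421, from 2702 to 3572 without 1 library, 1614 with log2(TPM + 0.1) and 1838 with matched libraries only. For FSChi against FSClow they numbered 3310, from 2634 to 3498 without 1 library, 2106 with only the 2 groups, 339 and 993 on the TPM scales, 1754 with matched libraries only and 1940 with log2(TPM + 0.1) without the nearly empty file.

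Replicate numbers are shared by the groups, but libraries of the same number did not deviate together (r from -0.19 to 0.17, from -0.05 to 0.25 and from -0.10 to 0.40 in the 3 comparisons, with 0, 2 and 1 of 5 numbers matching best). With the replicate number as a block, 1982 genes were called for FSChi against FSClow, and calls were lost there in Entpd2 (log2 fold change 1.96, edgeR adjusted p = 0.129), Enpp2 (2.16, 0.275), Alpl (2.57, 0.119), Slc29a1 (2.18, 0.115) and Acpp (-0.94, 0.0752), for FSChi against EpCAM in Slc29a1 (-1.87, 0.0765), and for FSClow against EpCAM in Slc28a3 (-1.95, 0.0501) and Slc29a3 (0.47, 0.160). The block changed no other call of a named gene. FSChi 2, with 1348428 counts, limits what could be seen of genes at a few CPM.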
